A study of Mus musculus with 6 samples.

Results

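NF-kappaB factors and a set of genes they induce were followed in thymic lymphocytes of mice with the corepressor KAP1 deleted in T lineage cells and of their control littermates. The set holds 10 genes, 5 that encode NF-kappaB subunits (Nfkb1, Nfkb2, Rel, Rela and Relb) and 5 induced targets (Nfkbia, Tnfaip3, Traf1, Tnf and Ccl4), out of 19057 genes that have a probe with 1 gene symbol on the bead array. The genes were selected from their known place in the pathway and with the knockout against control differences of these same arrays already seen, so those differences are given below as a description and carry no test. Every probe whose annotated symbol is one of the 10 was taken, which gave 13 probes for 9 genes. No probe is named for Nfkb1 in the annotation used here, so its level was not analysed.

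NF-kappaB is a dimer of Rel-family proteins that is held in the cytoplasm by inhibitor proteins until a signal, such as one from the T cell receptor or from a tumour necrosis factor receptor, leads to the destruction of the inhibitor. The dimer then enters the nucleus and binds kappaB sites in DNA. Some of its targets, Nfkbia and Tnfaip3 among them, encode proteins that shut the pathway off again, and others encode signalling adaptors, cytokines and chemokines. In the thymus the pathway is known for its part in the selection and survival of developing T cells and in the development of regulatory T cells.

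Illumina mouse bead arrays measured RNA from the thymus of 6 mice, 1 array a mouse, in 2 groups of 3. The knockout animals (replicates 1 to 3) had genotype CD4-Cre/Kap1flox, and the littermate controls (replicates 4 to 6) had genotype wt/Kap1flox, so the floxed allele was common to both groups. All mice were 8 to 12 weeks old, on a mixed C57/bl6-129sv background, and no treatment is named. Cre under Cd4 control is known to act from the double-positive stage of thymocytes onwards. Deletion in single cell types was not measured on these arrays. The lymphocytes were released mechanically with no sort named. The sources used here do not give the number of floxed copies in the controls.

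Detection meant a detection p-value under 0.01, and a probe entered the test when 3 or more arrays detected it, which held for 14651 of 45281 probes. Each array detected 13973 to 15182 probes, and mean signals before normalization ran from 340.1 to 678.5. Trim28, which encodes KAP1, had log2 signals of 10.23 to 11.01 on the knockout arrays and 12.25 to 12.59 on the control arrays. Its log2 difference was -1.72 ± 0.26 (SE, n = 3 per group; limma adjusted p = 0.230). Of the 9 T cell markers with a probe, 8 were tested and the probe of Cd8a was not detected. In bulk RNA, fewer cells of a type and less RNA per cell cannot be told apart, and this holds for every value below. A second line of numbers above the columns sets 1 knockout beside 1 control number 3 times (replicates 1 and 4, 2 and 5, 3 and 6). The labels do not say what these numbers mark, and differences within these pairs are given beside the results.

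The stretches of DNA just before the start sites of 5 members are shown because they differ in whether they hold a kappaB consensus, the 10-base motif that NF-kappaB dimers bind. Sequences are from RefSeq on build GRCm38.p6, and each shows the 150 bases before the gene's first start site, 5′ to 3′ on the gene's strand, with matches to the consensus on either strand in capitals. Of the 10 genes, 7 had windows in the RefSeq table, running from 250 bases before to 50 bases after a start site, and 4 of these 7 held a match (Nfkb2, Rel, Nfkbia and Tnfaip3). Over all 32851 such windows 4.51% held one, and over all genes with a window 5.14% did in at least 1 window.
Nfkb2, chr19:46304587-46304736, plus strand: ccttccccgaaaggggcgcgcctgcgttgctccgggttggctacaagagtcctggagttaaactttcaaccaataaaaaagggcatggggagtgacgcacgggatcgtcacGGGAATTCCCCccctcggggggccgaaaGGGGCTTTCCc
Rel, chr11:23770970-23771119, minus strand: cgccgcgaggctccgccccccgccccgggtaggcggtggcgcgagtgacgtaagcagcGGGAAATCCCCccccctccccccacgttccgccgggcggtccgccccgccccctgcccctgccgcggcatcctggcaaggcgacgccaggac
Nfkbia, chr12:55492648-55492797, minus strand: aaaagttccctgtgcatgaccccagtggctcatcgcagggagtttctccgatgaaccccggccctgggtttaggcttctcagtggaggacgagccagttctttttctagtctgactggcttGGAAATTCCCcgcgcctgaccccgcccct
Tnfaip3, chr10:19015411-19015560, minus strand: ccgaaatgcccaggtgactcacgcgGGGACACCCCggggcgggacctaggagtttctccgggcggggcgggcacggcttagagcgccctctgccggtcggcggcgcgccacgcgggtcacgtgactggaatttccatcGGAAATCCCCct
Traf1, chr2:34961773-34961922, minus strand: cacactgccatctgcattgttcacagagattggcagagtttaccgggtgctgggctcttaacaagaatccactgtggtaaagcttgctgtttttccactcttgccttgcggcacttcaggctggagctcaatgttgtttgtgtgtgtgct

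In the Nfkb2 window, overlapping matches began 39 and 38 bases before the start site and a further one 11 bases before it. The windows at the other annotated starts of Nfkb2 also held matches, 1 of them common to both. The Rel window held overlapping matches 92 and 91 bases before the start, Nfkbia 1 match 29 bases before it, and Tnfaip3 matches 125 and 12 bases before its first start. The single windows of Traf1, Tnf and Rela held no match, which says only that these letters are not in these windows. Matches are a description of the letters, not of binding.

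**Figure D1:**
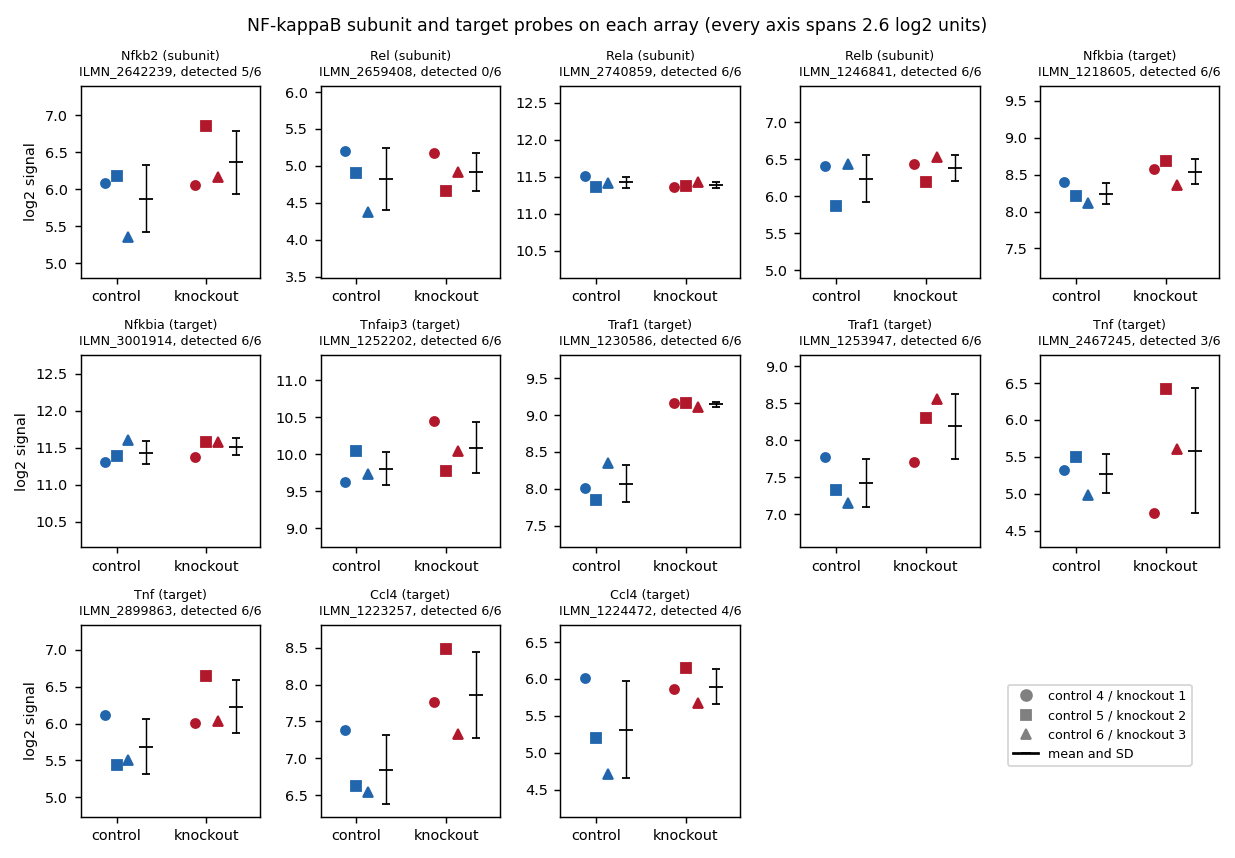
Log2 signal of each of the 13 probes on every array, controls in blue and knockouts in red, with the mean and SD of each group in black; marker shapes join arrays with neighbouring header numbers. For Traf1 probe ILMN_1230586 the knockout arrays sit between 9.11 and 9.17 and the controls between 7.86 and 8.35, while Rela lies between 11.36 and 11.51 on all arrays.

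Among the subunits, levels in knockout and control overlapped for every probe. Rela, which encodes p65, the transactivating partner of the commonest dimer, had log2 signals of 11.36, 11.37 and 11.43 in knockout replicates 1 to 3 and 11.51, 11.36 and 11.41 in control replicates 4 to 6. These values are nearly level, and the log2 difference was -0.04 ± 0.19 (SE, n = 3 per group; 95% interval -0.48 to 0.39). The spread of Rela within the groups was small for this array set: its residual SD was 0.059, and 99.6% of all tested probes had one at least as large.

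Relb encodes the partner of p52 in the non-canonical arm of the pathway. Its log2 signals were 6.43, 6.19 and 6.53 in the knockout and 6.41, 5.87 and 6.44 in the controls. Control replicate 5 was the lowest, the groups overlapped, and the log2 difference of 0.15 ± 0.24 (SE, n = 3 per group) became -0.04 without that array. Nfkb2, which encodes p100, the precursor of p52 and itself an inhibitor, had log2 signals of 6.06, 6.86 and 6.17 in the knockout and 6.09, 6.18 and 5.35 in the controls. Knockout replicate 2 was high and control replicate 6 low, and on the latter array the probe was not detected. The log2 difference was 0.49 ± 0.31 (SE, n = 3 per group; 95% interval -0.22 to 1.20), and it was 0.23 without control replicate 6. Within the pairs it was -0.03, 0.67 and 0.82.

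Rel encodes c-Rel, the subunit best known in lymphocytes for its part in activation. Its only probe, ILMN_2659408, was detected on 0 of 6 arrays, did not enter the test, and had log2 signals of 4.66 to 5.18 in the knockout and 4.37 to 5.20 in the controls. These are background values and say nothing of a difference. The NF-kappaB family is thus described here by 3 of its 5 genes.

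The targets that feed back on the pathway had smaller log2 differences than Traf1 and Ccl4 below, with wide intervals. Nfkbia encodes IkappaBalpha, the inhibitor that retains p65 dimers in the cytoplasm. Its probe ILMN_3001914 had log2 signals of 11.38, 11.58 and 11.58 in the knockout and 11.30, 11.39 and 11.60 in the controls, and the log2 difference was 0.08 ± 0.20 (SE, n = 3 per group). The other probe, ILMN_1218605, had 8.58, 8.69 and 8.36 against 8.40, 8.21 and 8.12, a log2 difference of 0.30 ± 0.21. Groups overlapped on both probes, on the second only because knockout replicate 3 lay just below control replicate 4.

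Tnfaip3 encodes A20, a ubiquitin-editing enzyme that damps signalling to NF-kappaB. Its log2 signals were 10.46, 9.78 and 10.04 in the knockout and 9.63, 10.05 and 9.73 in the controls. Knockout replicate 1 alone stood above the control range. The log2 difference was 0.29 ± 0.25 (SE, n = 3 per group), 0.10 without knockout replicate 1, and 0.83, -0.27 and 0.30 within the pairs.

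Traf1, an adaptor of tumour necrosis factor receptors that binds TRAF2 and is itself induced by NF-kappaB, had the largest difference of the set. Probe ILMN_1230586 had log2 signals of 9.16, 9.17 and 9.11 in the knockout and 8.01, 7.86 and 8.35 in the controls. All knockout arrays lay above all control arrays, and the knockout arrays were close to one another (9.14 ± 0.03 against 8.07 ± 0.25, SD, n = 3 each). The log2 difference was 1.07 ± 0.21 (SE; 95% interval 0.59 to 1.56), a 2.10-fold difference in the corrected signal plus 16. A difference at least as large and in the same direction was held by 74 of the 14651 tested probes, this one included. As deposited, before any correction, the signals were 909.6, 626.3 and 551.3 in the knockout and 397.8, 338.5 and 282.0 in the controls.

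Leaving out any 1 array kept this Traf1 difference between 0.96 and 1.21, and within the pairs it was 1.15, 1.31 and 0.75. The second Traf1 probe, ILMN_1253947, is annotated to another transcript record (AK089281 in place of NM_009421). It had 7.70, 8.31 and 8.56 in the knockout and 7.78, 7.33 and 7.14 in the controls, so knockout replicate 1 lay inside the control range. Its log2 difference was 0.77 ± 0.29 (SE, n = 3 per group; 95% interval 0.12 to 1.43), and within the pairs it was -0.07, 0.98 and 1.41. Both probes were thus higher on average, and they disagree for knockout replicate 1.

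Ccl4, a chemokine of activated T cells, natural killer cells and macrophages, had log2 signals of 7.76, 8.48 and 7.33 in the knockout and 7.38, 6.62 and 6.54 in the controls on probe ILMN_1223257. Knockout replicate 2 was the highest, and knockout replicate 3 lay just below control replicate 4. The log2 difference was 1.0 ± 0.35 (SE, n = 3 per group; 95% interval 0.21 to 1.80), and leaving out knockout replicate 2 or control replicate 4 gave 0.69 or 1.27. Within the pairs it was 0.38, 1.85 and 0.79. The dimmer probe, ILMN_1224472, was detected on 3 knockout arrays but 1 control array, and its log2 difference was 0.58 ± 0.33. Leaving out control replicate 6 or control replicate 4 gave 0.29 or 0.94, and within the pairs it was -0.15, 0.95 and 0.96.

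Tnf encodes the cytokine that both induces and is induced by NF-kappaB. Probe ILMN_2899863 had 6.0, 6.64 and 6.03 in the knockout and 6.12, 5.44 and 5.51 in the controls, with knockout replicate 2 high and control replicate 4 above both other knockouts. The log2 difference was 0.54 ± 0.28 (SE, n = 3 per group), and leaving out knockout replicate 2 or control replicate 4 gave 0.33 or 0.75. On control replicates 5 and 6 the detection p-value of this probe was 0.0096, just under the limit of 0.01. The other probe, ILMN_2467245, was detected on 2 knockout arrays and 1 control array. Its log2 difference of 0.32 ± 0.40 turned to -0.10 without knockout replicate 2.

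**Figure D2:**
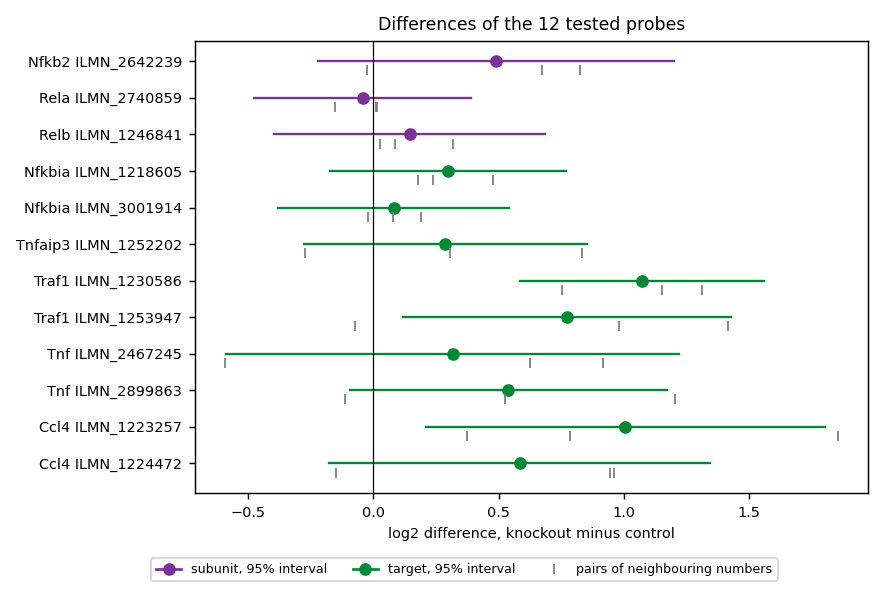
Log2 difference, knockout minus control, of the 12 tested probes with its 95% interval (purple for subunits, green for targets) and, as grey ticks, the differences within the 3 pairs of arrays. The differences run from -0.04 for Rela to 1.07 for Traf1 probe ILMN_1230586. The members were chosen with this contrast known, so the intervals show the spread between arrays and are no test.

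Of the 12 tested member probes 11 had a higher mean in the knockout, where 48.9% of all tested probes did. For 1 of the 12, Traf1 probe ILMN_1230586, every knockout array lay above every control array, against 4.48% of all tested probes. In the limma fit across all probes 0 of the 12 passed an adjusted p under 0.05, against 0.0273% of all tested probes, and 3 had an unadjusted p under 0.05, against 3.54%. The members were chosen with this contrast known, so nothing is read from these shares. Trim28, the deleted gene, also missed an adjusted p under 0.05 (limma adjusted p = 0.230). Counts of 0 at this threshold, here and in the lists below, therefore do not show that levels were unchanged.

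Set side by side, the targets differed more than the subunits. With each gene represented by its tested probe of highest mean, the mean log2 signal of the 5 targets was 8.95, 9.13 and 8.82 in the knockout and 8.49, 8.27 and 8.35 in the controls. The groups did not overlap, and the log2 difference was 0.60 ± 0.11 (SE over arrays, n = 3 per group). The mean of the 3 tested subunits was 7.95, 8.14 and 8.04 in the knockout and 8.00, 7.81 and 7.73 in the controls, which overlap, with a log2 difference of 0.20 ± 0.10.

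The targets minus the subunits gave 1.0, 0.99 and 0.78 log2 units in the knockout and 0.49, 0.47 and 0.62 in the controls. This contrast was higher in the knockout by 0.40 ± 0.09 (SE over arrays), and by 0.52, 0.52 and 0.16 within the pairs. Traf1 and Ccl4 have the largest share in the targets' mean, with differences of 1.07 and 1.0 beside 0.54 for Tnf, 0.29 for Tnfaip3 and 0.08 for Nfkbia. Without Nfkb2, which is left out when detection on all 6 arrays is required, the subunit difference was 0.05 and the contrast 0.55. With all tested probes of a gene averaged, the targets differed by 0.52 and the contrast was 0.33. Without background correction the contrast was 0.32.

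**Figure D3:**
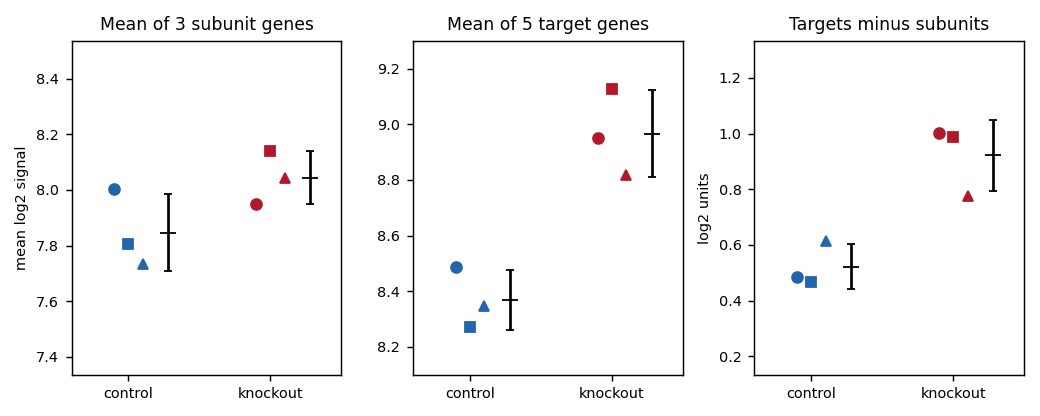
Per-array mean log2 signal of the 3 tested subunit genes and of the 5 target genes, and their difference, with group means and SDs in black and marker shapes as in the plot of single probes; every axis spans 1.2 log2 units. Knockout and control arrays overlap for the subunits and do not overlap for the targets or for the difference.

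Across arrays the same animals recurred at the extremes. Knockout replicate 2 was the highest array for 6 of the 9 tested target probes and for 7 of the 12 tested probes, and control replicate 6 was the lowest for 4 of the 9 and for 5 of the 12. Of the 12 dendritic cell and MHC class II markers 8 were tested and 7 were higher in the knockout, with a summed corrected signal of 7711.8, 13972.1 and 8945.8 in the knockout and 5672.7, 4438 and 5675.9 in the controls, and groups that do not overlap. Of the 8 tested markers, H2-Aa, H2-Ab1, H2-Eb1, H2-DMa, H2-DMb1 and Cd74 differed by 0.68 to 1.21, Siglech by 0.10 and Ciita by -0.06. The dendritic cell markers Itgax, Flt3, Xcr1 and Clec9a were not detected on any array. Sums here and below cover every marker with a probe, tested or not, by its brightest probe. Markers that were not detected are therefore included in the sums.

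Macrophage markers, 5 tested and 5 higher, summed to 791.9 to 1739.9 in the knockout and 587.9 to 1122.9 in the controls, with Adgre1, Fcgr1 and Mertk not detected. Natural killer and innate-like markers, 4 tested and 4 higher, summed to 546.3 to 1351.1 against 464.8 to 687.3, with Klrb1c, Klrk1, Ncr1 and Zbtb16 not detected. B cell markers, 2 tested and 2 higher, summed to 773.8 to 1305.9 against 550.7 to 787.2, with Ms4a1, Pax5 and Cd22 not detected. In each of these 4 lists, and in the mature T cell and egress list that follows, knockout replicate 2 held the highest sum. Markers of mature T cells and egress, 7 tested and 7 higher, summed to 6414.1 to 7520 against 4111.9 to 5956, with S1pr1 and Ms4a4b not detected. T cell markers, 8 tested and 5 higher, summed to 116781.2, 102342.7 and 116179.6 in the knockout and 108630, 106988 and 107213.6 in the controls. The lowest of these T cell sums was that of knockout replicate 2. Neutrophil markers were lower for 6 of 6, with sums of 857.5 to 3047.4 against 1635.6 to 4240.2. Thymic epithelial markers, 2 tested and 1 higher, summed to 357.6 to 642.1 against 426.9 to 539.5, and 6 of their 8 were not detected. The part of these cells in the differences of Traf1, Ccl4 and Tnf was not tested. Without knockout replicate 2, Traf1 probe ILMN_1230586 differed by 1.06 and the mean of the targets by 0.52. Traf1 probe ILMN_1253947 then differed by 0.72, and Ccl4 probes ILMN_1223257 and ILMN_1224472 by 0.69 and 0.46. For Tnf probes ILMN_2899863 and ILMN_2467245 the difference without that array was 0.33 and -0.10.

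The rest of the pathway was read from 4 lists of 138 genes, of which 93 had a tested probe. In the limma fit 0 of the 93 passed an adjusted p under 0.05, with 7 higher and 0 lower at an unadjusted p under 0.05 (7.53% of them, against 3.54% of all tested probes). The lists were drawn up with earlier results of these arrays known. They describe only genes that passed the filter on dim probes, which a gene bright in 1 group alone can pass.

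Upstream of the subunits, the kinases, adaptors and ubiquitin enzymes that carry the signal stayed close to the median of all tested probes, which was -0.01. Of 26 tested genes 16 were higher and 10 lower, with a median log2 difference of 0.04 and a range of -0.41 to 0.37. At an adjusted p under 0.05, 0 passed in either direction, and 0 had an unadjusted p under 0.05. The genes with the smallest p were Tank, an adaptor that binds TRAF proteins, at 0.36 ± 0.20 (SE, n = 3 per group), Map3k14, the kinase NIK of the non-canonical arm, at 0.37 ± 0.21, and Ube2n, a ubiquitin-conjugating enzyme, at -0.41 ± 0.27. The other 2 tested Tank probes differed by 0.36 and 0.61, and the other tested Ube2n probe by 0.53, opposite to the first.

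The inhibitors and modulators had 14 genes higher and 8 lower of 22, with a median of 0.09 and a range of -0.45 to 0.71. At an adjusted p under 0.05, 0 passed, and 1 had an unadjusted p under 0.05. That gene was Tnip2, which encodes a partner of A20, with log2 signals of 5.97, 6.83 and 6.78 in the knockout and 5.84, 5.77 and 5.85 in the controls. Its log2 difference was 0.71 ± 0.27 (SE, n = 3 per group; limma adjusted p = 0.998). The next smallest p-values of the list were those of Rnf11 and Tnip1, which differed by 0.36 ± 0.21 and 0.36 ± 0.24. Itch and Tax1bp1, which like these genes encode partners of A20, differed by -0.45 ± 0.38 and -0.01 ± 0.20.

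Receptors and ligands that use the pathway stood higher, with 16 of 17 tested genes above 0 and a median of 0.38, but 13 of the 30 with a probe were too dim to test. With no filter on dim probes the median was 0.13, and without background correction it was 0.21. At an adjusted p under 0.05, 0 passed, and 3 were higher at an unadjusted p under 0.05. Il18r1, a chain of the interleukin 18 receptor, was detected on all 3 knockout arrays but 1 control array, so it passed the filter through the knockout. Its log2 signals were 7.09, 6.82 and 7.58 in the knockout and 5.44, 5.35 and 5.99 in the controls, and it differed by 1.57 ± 0.28 (SE, n = 3 per group; limma adjusted p = 0.401). Ltb, which encodes lymphotoxin beta, a ligand that engages the non-canonical arm, had log2 signals of 10.63, 11.15 and 11.21 in the knockout and 10.18, 10.32 and 10.51 in the controls. The Ltb groups did not overlap, and its log2 difference was 0.67 ± 0.24 (limma adjusted p = 0.998). Tlr2, a receptor for bacterial lipoproteins, differed by 0.65 ± 0.28 (limma adjusted p = 0.998) and was detected on 3 knockout and 2 control arrays. Its log2 signals were 6.31, 6.68 and 6.20 in the knockout and 5.60, 5.38 and 6.25 in the controls, and the groups overlap.

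Other induced targets had 25 genes higher and 3 lower of 28, with a median of 0.31 and a range of -0.26 to 1.14, and 28 of the 48 with a probe were bright enough to test. The median was 0.11 with no filter on dim probes, 0.19 without background correction and 0.19 without control replicate 5. At an adjusted p under 0.05, 0 passed, and 3 were higher at an unadjusted p under 0.05. These were Ccl9, a chemokine gene with detection on all 3 knockout arrays but 0 control arrays and at least 1.28-fold higher in the knockout, Cxcl16, a membrane-bound chemokine gene, at 0.75 ± 0.29, and Ccr7, a chemokine receptor gene of mature T cells and dendritic cells, at 1.14 ± 0.45 (SE, n = 3 per group). The limma adjusted p was 0.998 for each of these 3 genes. Cxcl16 was detected on 3 knockout arrays but 1 control array, with 6.05, 6.56 and 5.68 in the knockout and 5.75, 5.08 and 5.21 in the controls, and the groups overlap. Ccr7 had 7.52, 8.42 and 7.11 in the knockout and 7.37, 5.78 and 6.48 in the controls, with control replicate 4 above knockout replicate 3. Ccr7 and Cd69 of this list are also among the markers of mature T cells and egress above, by the same probes.

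**Figure D4:**
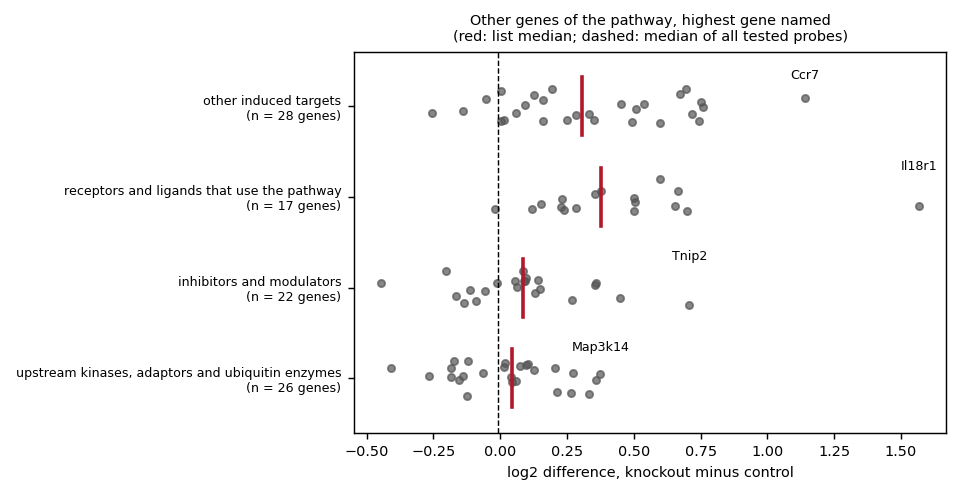
Log2 difference, knockout minus control, of every tested gene in the 4 lists (points, spread vertically for legibility), with the median of each list in red and the median of all tested probes, -0.01, dashed. The medians are 0.04 for upstream factors, 0.09 for inhibitors and modulators, 0.38 for receptors and ligands and 0.31 for other induced targets, and the point named Il18r1, at 1.57, was detected on 1 control array.

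Over the 4 lists every knockout array lay above every control array for 13 of 93 genes (14.0%), against 4.48% of all tested probes. Of these 13, 5 were receptors or ligands, 3 were upstream factors, 2 were inhibitors or modulators and 3 were other targets. They include Il18r1 and Ccl9, which were detected on 1 and 0 control arrays. The reverse held for 0 of the 93, and its share among all tested probes was not computed, so nothing is read from it. The difference between the lists and all probes was not tested.

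Gene patterns like those of the set were sought among 8192 other genes by Pearson correlation over the 6 arrays, as a description. The arrays share the same genotype groups, and with so few of them high values are common. The mean of the targets was followed most closely by Ephx1, Cyth4, Trim26, H2-Aa and Acp5, with r of 0.99, 0.99, 0.98, 0.98 and 0.98. H2-Aa, an MHC class II gene, is also among the dendritic cell and MHC class II markers above. The mean of the subunits was followed most closely by Rp9, Skap2, Napsa, Gm2a and Mfng, with r of 0.99, 0.99, 0.99, 0.98 and 0.98.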

How the data were processed

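Per the file headers, the deposited signal table holds a linear intensity value per probe and array with no normalization between arrays, and a detection p-value beside each. BeadStudio 3.1.3 is named in the submitters' processing notes, without its settings. The authors' deposited value table holds background-subtracted intensity values, as judged from the values themselves, and served as an alternative.

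Signals were background-corrected, quantile-normalized and log2-transformed with neqc in limma 3.58.1 (R 4.3.3) after adding 16, which understates differences of dim probes. The 14651 probes detected (p under 0.01) on at least 3 of the 6 arrays were fitted with lmFit and eBayes, with no covariate, and p-values were adjusted by Benjamini-Hochberg over all of them. The script was tested on simulated data. The median standard error was 0.257, and the number of arrays limits the precision. Probes were named from an annotation table, 34885 with 1 symbol and 18 with several, and symbols of the pathway and marker lists were updated through gene numbers to GRCm38.p6. Probe sequences were not used.

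The members and lists were chosen with earlier results of these data known. Named genes are the members, Trim28, the 3 genes of smallest p in each pathway list, and the 5 most alike genes for each mean profile. Genes named besides these with their values were chosen after the values were seen. Animals stand for replicates, and the labels give no shared replicate numbers. Alternatives covered background correction, the offset, the filter, the prior, array weights, header numbers as a block, averaging of a gene's tested probes, and single arrays left out.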

Additional observations from a re-analysis of the deposited data

How the results depend on the processing

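Leaving out single arrays kept the mean of the targets between 0.52 and 0.67, the mean of the subunits between 0.14 and 0.28 and the difference between them between 0.36 and 0.47, and it gave 0 to 1 probes past the threshold over the whole array in place of 4, with 10 to 11 of the 12 member probes higher. Without background correction the targets stood at 0.39, the subunits at 0.067, the targets minus the subunits at 0.32, and 2 probes passed. Averaging all tested probes of a gene gave 0.52 for the targets and 0.33 for the targets minus the subunits. With no filter on dim probes 1 probe passed, and with neighbouring header numbers as a block 2 did. Other settings raised the count, to 5 with an offset of 1, 5 with a trend and robust prior and 6 with the authors' value table. Requiring detection on all 6 arrays removed Nfkb2 and gave 0.051 for the subunits and 0.55 for the targets minus the subunits. In the 4 arrays with the lower header numbers alone, a setting chosen after the headers were seen, that contrast was 0.52 and 0 probes passed. The cause of these shifts was not tested, apart from the loss of Nfkb2. The pathway lists had 0 genes past the threshold in the fit and in all 16 alternatives. Directions of single probes changed only for Relb (-0.04 without control replicate 5) and Tnf probe ILMN_2467245 (-0.11 with array weights and -0.10 without knockout replicate 2), and the median of the upstream list was -0.01 without knockout replicate 3. The labels give the groups no shared replicate numbers, so the only blocks fitted were those from the header numbers. Dim probes (Rel, Nfkb2, Tnf probes ILMN_2467245 and ILMN_2899863, Ccl4 probe ILMN_1224472) are limited by signal over background.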
